A study of Mus musculus with 20 samples.

Results

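Heme, the iron porphyrin of haemoglobin, cytochromes and catalases, is built by a chain of enzymes that starts and ends in the mitochondrion. The 9 genes described here are Alas1, Alas2, Alad, Uros, Urod, Cpox, Ppox and Fech, which encode 8 enzymes of synthesis, and Hmox1, which encodes the inducible heme oxygenase that breaks heme down. They were chosen by name as genes of this pathway, and all 9 were found among the 55401 genes of the count table.

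RNA of 5 organs (spleen, liver, heart, kidney and small intestine) was sequenced from wild-type (WT) mice and from Nsun6 knockout (KO) mice, with 2 libraries for each tissue and genotype and 20 in all. Nsun6 encodes an RNA methyltransferase that places m5C on mRNA, and the KO strain lacks exons 3 and 4 of the gene in every cell, after CRISPR/Cas9 deletion. Tissues were taken from female mice of 8 weeks, the KO strain having been made in C57BL/6J eggs, and no other allele or treatment is described. The libraries of a group are described as biological replicates, without naming the mouse behind each, and the p-values measure the spread between them. Whether several organs came from the same mouse is not stated either, and the tests between organs treat all libraries as independent.

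Total counts ranged from 15897446 to 44508197 per library. Values are CPM, the reads of a gene as a share of all counted reads of its library, after TMM scaling over the 20 libraries, unless a scale per length is named. Nsun6 itself passed no test between the genotypes, with an adjusted p of 0.999 in the liver and 1 in the other 4 tissues. The genotypes overlapped in the spleen and small intestine, whereas in 3 tissues each KO value was under each WT value. Its level in the spleen was 6.10 and 4.39 CPM in WT and 4.04 and 6.62 CPM in KO, and in the liver 7.23 and 4.79 CPM in WT and 3.95 and 4.54 CPM in KO. In the kidney it was 5.57 and 5.98 CPM in WT and 3.95 and 3.33 CPM in KO, in the heart 6.95 and 6.70 against 6.0 and 5.53 CPM, and in the small intestine 9.63 and 6.09 against 9.67 and 5.16 CPM. These counts cover all exons of the gene, so they do not check the deletion of 2 of them.

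Each tissue held its own defining markers. The summed level of 10 hepatocyte genes was 195324 to 378276 CPM in the liver, that of 6 cardiomyocyte genes was 57149.7 to 85089 CPM in the heart, and that of 6 kidney tubule genes was 23459 to 46582 CPM in the kidney. The 6 enterocyte genes summed to 13447 to 25847 CPM in the small intestine. In the spleen, 6 B cell genes summed to 2300 to 3276.5 CPM. Liver transcripts stood out in WT replicate 2 of the spleen, where the hepatocyte genes summed to 3534 CPM against 10.2 CPM in WT replicate 1 and 129 and 183 CPM in the KO libraries. Smaller traces of other organs were found elsewhere. The kidney tubule genes summed to 47.2 CPM in KO replicate 1 of the spleen, of which Kap made up 34.0 CPM, against 0.631 to 2.02 CPM in the other spleen libraries. The cardiomyocyte genes summed to 405 CPM in KO replicate 1 of the small intestine, against 8.92 to 28.2 CPM in its other libraries. Results for the spleen are given with and without its WT replicate 2 where it matters.

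Aminolevulinate synthase carries out the first and usually rate-limiting step, and mammals have 2 genes for it. Alas1 serves nearly all cells and is repressed by heme itself, and in the liver it supplies the cytochrome P450 enzymes. Alas2 is the X-linked gene of erythroid cells, where it supplies haemoglobin. Its transcription depends on the GATA factors, and its mRNA carries an iron responsive element. In the spleen, heme is both made, in red cell precursors, and broken down, in red pulp macrophages that take up aged red cells.

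The bases before the transcription start were read from RefSeq windows on GRCm38.p6 for the members in the table. The reason was that the 2 synthases had different organ patterns and several members had higher fitted levels in the KO spleen. Of the 9 members, 7 were matched, with 10 windows of 250 bases. Both strands were searched for the core letters of a GATA site, spelled GATA with A or T before it and A or G after it. Such letters were found before Alas2, Cpox and the downstream start of Uros. They were not found in the windows of Alas1, Alad, Urod and Ppox or of the upstream start of Uros. Of the 32851 windows of all genes, 26.5% hold these letters, so a match is a description and not a binding site. The stretches of these windows outside annotated exons are shown 5′ to 3′ on the strand of the gene, with the GATA letters (here read on the opposite strand) in capitals. They lie at chrX:150547167-150547374 on the plus strand for Alas2, chr16:58669958-58670207 on the plus strand for Cpox and chr7:133702617-133702750 on the minus strand for Uros.
Alas2: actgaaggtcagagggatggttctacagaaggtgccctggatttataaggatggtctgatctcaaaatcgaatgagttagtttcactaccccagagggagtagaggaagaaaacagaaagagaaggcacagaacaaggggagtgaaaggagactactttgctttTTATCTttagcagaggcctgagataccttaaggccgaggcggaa
Cpox: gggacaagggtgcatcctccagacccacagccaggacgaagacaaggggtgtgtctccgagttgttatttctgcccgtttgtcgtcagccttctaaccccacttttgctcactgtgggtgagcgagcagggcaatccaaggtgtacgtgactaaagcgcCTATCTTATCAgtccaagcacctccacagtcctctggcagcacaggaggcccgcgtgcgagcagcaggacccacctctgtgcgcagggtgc
Uros: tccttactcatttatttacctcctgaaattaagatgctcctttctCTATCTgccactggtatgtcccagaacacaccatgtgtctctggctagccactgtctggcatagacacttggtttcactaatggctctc

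The match before Alas2 spans bases 86 to 81 before the start. Cpox has 2 matches that share a base, from 91 to 86 and from 86 to 81. The match shown for Uros spans bases 205 to 200, and another, from 68 to 63, lies in an annotated exon and is not shown. The KLF1 letters CCACACCC, the antioxidant element (TGACNNNGC or TGANTCAGC) and the cAMP element (TGACGTCA or TGACGTAA) were in no window of a member, and in 3.2%, 10.7% and 1.98% of all windows.

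On GRCm38, Alas1 (ENSMUSG00000032786) lies on chromosome 9 from 106233455 to 106248654 on the minus strand, and Alas2 (ENSMUSG00000025270) on chromosome X from 150547375 to 150570638 on the plus strand. Alad (ENSMUSG00000028393, chromosome 4, 62509169 to 62519918) encodes the enzyme that joins aminolevulinate into porphobilinogen. Uros (ENSMUSG00000030979, chromosome 7, 133686243 to 133710072) closes the ring into uroporphyrinogen III, and Urod (ENSMUSG00000028684, chromosome 4, 116989965 to 116994413) decarboxylates it. Cpox (ENSMUSG00000022742, chromosome 16, 58670292 to 58717636) and Ppox (ENSMUSG00000062729, chromosome 1, 171275990 to 171281186) encode the oxidases of the late steps. Fech (ENSMUSG00000024588, chromosome 18, 64452914 to 64490251) encodes ferrochelatase, which inserts the iron. Hmox1 (ENSMUSG00000005413) lies on chromosome 8 from 75093621 to 75100589. Annotated exons of other genes cover 17.5% of the exon bases of Ppox (B4galt3), 12.9% of those of Alas2 (Apex2), 7.53% of those of Alas1 (4930500F10Rik) and 3.06% of those of Cpox (Gpr15), and reads in such stretches may belong to either gene.

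The 2 synthases had different organ patterns. In CPM per kb of merged exons, the scale on which genes can be compared, Alas1 averaged 82.6 ± 51.0 (SD, n = 4) in the liver and 2.54 ± 0.715 in the spleen. Alas2 averaged 7.90 ± 1.41 in the liver and 106 ± 52.7 in the spleen. Thus Alas1 was highest in the liver and lowest in the spleen, where Alas2 was highest. Alas2 was lowest in the small intestine, at 0.332 ± 0.0634, where Alas1 was 9.09 ± 4.002.

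The log2 ratio of Alas1 to Alas2 per kb was 4.57 and 4.88 in the WT and 4.04 and 5.13 in the KO libraries of the small intestine. In the liver it was 2.34 and 3.92 in WT and 3.66 and 2.77 in KO. In both organs Alas1 was the higher of the 2 in every library. In the spleen the ratio was -4.50 and -4.22 in WT and -5.78 and -6.62 in KO, so that Alas2 exceeded Alas1 by 18.7-fold to 98.4-fold, and the KO libraries lay below the WT libraries. The kidney gave 1.498 and -0.36 in WT and 2.28 and 0.54 in KO, and the heart -0.36 and -1.05 in WT and -1.39 and 0.22 in KO. Neither gene led in all libraries of the kidney or the heart. The order of the 2 genes in the heart also depended on the length used, because the mean log2 ratio was -0.64 ± 0.72 (SD, n = 4) with merged exons and 0.72 without division by length. The ratio describes these libraries and was not tested.

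**Figure D1:**
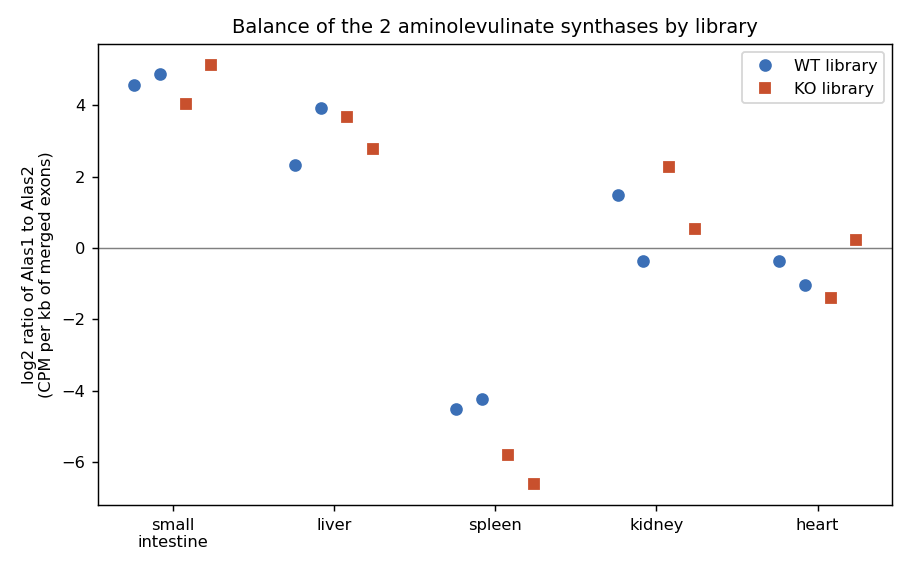
Each point is the log2 ratio of Alas1 to Alas2 in a library, in CPM per kb of merged exons, by organ on the x axis, with circles for WT and squares for KO. Points above 0 have more Alas1, as in all libraries of the small intestine and liver, and the 4 spleen libraries lie between -6.62 and -4.22.

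Alas1 was highest in the liver, where it was 199 and 914 CPM in WT and 594 and 334 CPM in KO. It was 79.0 and 86.3 CPM in WT and 71.2 and 97.5 CPM in KO in the heart, and 72.4 and 37.0 against 175 and 91.0 CPM in the kidney. In the small intestine it was 37.4 and 72.3 against 32.8 and 82.1 CPM, and in the spleen 15.98 and 21.1 against 15.3 and 10.3 CPM. Every liver library was above every library of the other organs, and every spleen library below them. On the log2 scale the liver exceeded the heart by 2.62 and the kidney by 2.61 (SE 0.47 each). Adjusted p-values were 3.57e-04 and 5.31e-04 (quasi-likelihood test of edgeR, adjusted by the Benjamini-Hochberg method, as are all adjusted p-values here). The heart, kidney and small intestine could not be told apart as neighbours in the order, and the small intestine exceeded the spleen by 1.89 (SE 0.46, adjusted p = 0.00358).

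Alas2 was highest in the spleen, at 141 and 153 CPM in WT and 329 and 394 CPM in KO. The heart followed with 39.4 and 69.3 CPM in WT and 72.7 and 32.5 CPM in KO, 2.11 below the spleen on the log2 scale (SE 0.31, adjusted p = 5.03e-05) and 1.48 above the liver (SE 0.30, adjusted p = 9.85e-04). Liver libraries held 15.3, 23.5, 18.2 and 19.01 CPM, in the order of WT replicates 1 and 2 and KO replicates 1 and 2, and those of the kidney 9.97, 18.4, 13.9 and 24.4 CPM. The liver and the kidney did not differ beyond their spread (adjusted p = 0.607). In the small intestine the values were 0.599, 0.936, 0.760 and 0.895 CPM, 4.33 below the kidney on the log2 scale (SE 0.36, adjusted p = 3.16e-07).

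Haemoglobin transcripts, which reticulocytes carry in the blood left in an organ, followed the same order at its ends. The 4 globin genes summed to 11613 and 15823 CPM in WT and 25763 and 29218 CPM in KO spleen. They summed to 1030.2 to 5435 CPM in the heart, 836 to 1617 CPM in the kidney, 415 to 679 CPM in the liver and 24.1 to 120.0 CPM in the small intestine. Alas2 came to 0.968% to 1.35% of the globin CPM in the spleen, 1.01% to 2.03% in the kidney, 1.28% to 3.17% in the heart, 2.25% to 5.59% in the liver and 0.745% to 2.96% in the small intestine. Across organs this share, which is not per length, thus moved far less than Alas2 itself, whose mean level ranged from 0.797 CPM in the small intestine to 254 CPM in the spleen. How much of Alas2 in the heart, liver and kidney came from blood was not tested.

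**Figure D2:**
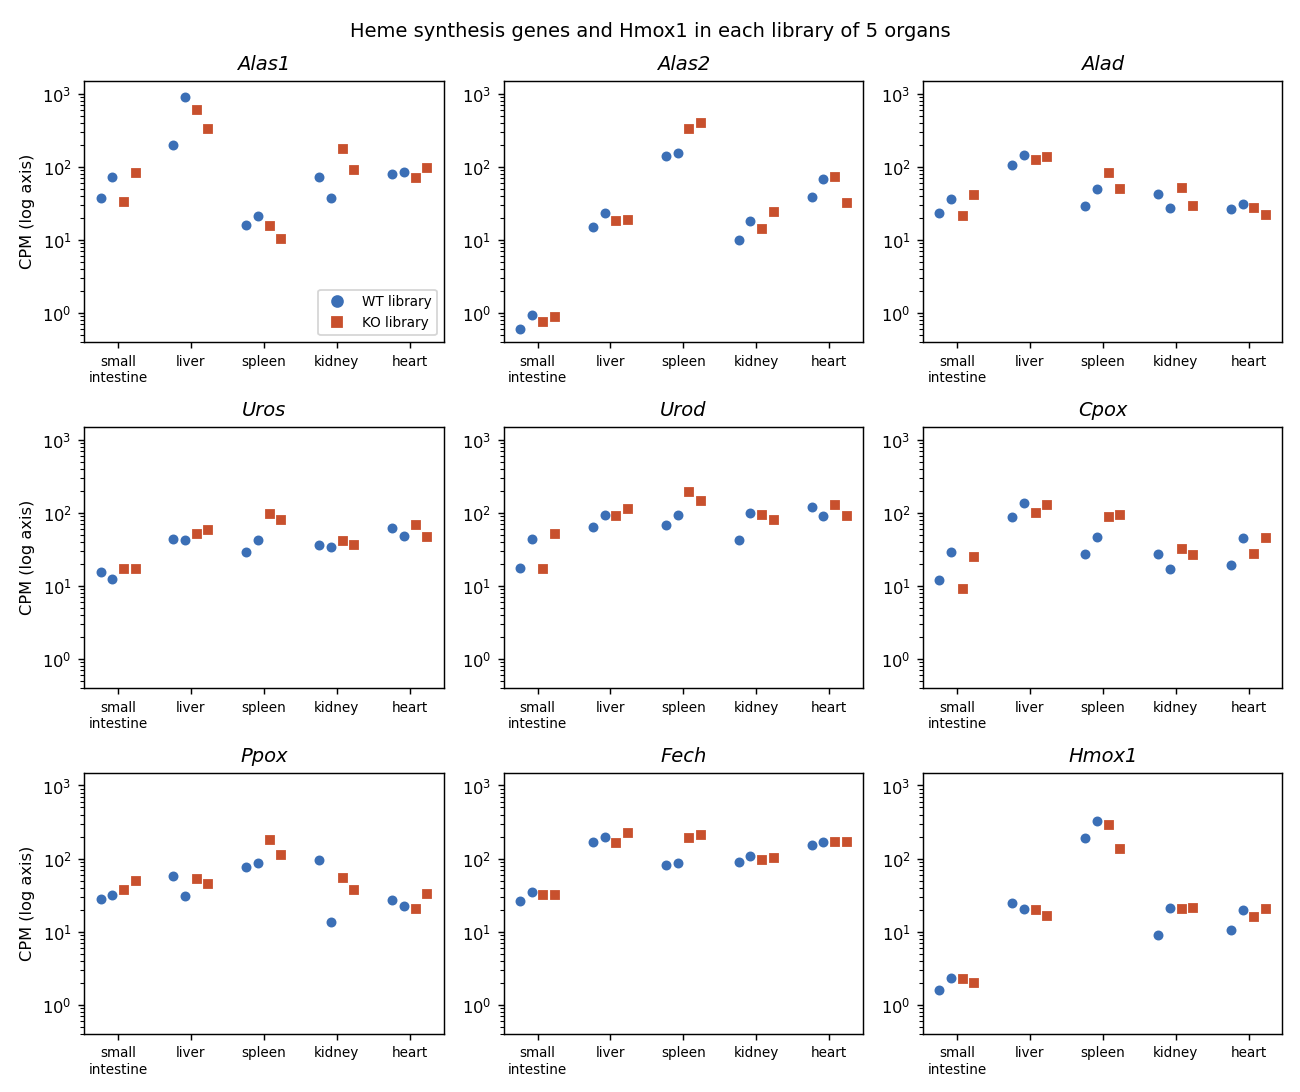
Levels of the 9 genes in CPM on a log axis, with a panel per gene, organs on the x axis, circles for WT and squares for KO libraries. Alas1 peaked in the liver and Alas2 and Hmox1 in the spleen, whereas Uros, Urod and Fech stayed within a narrower range outside the small intestine.

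Hmox1 had the widest gap of the 9 members between its leading organ and the next. It was 193 and 327 CPM in WT and 289 and 134 CPM in KO spleen, against 16.4 to 24.7 CPM in the liver, 8.96 to 20.9 CPM in the kidney, 10.6 to 20.4 CPM in the heart and 1.60 to 2.30 CPM in the small intestine. The spleen exceeded the liver by 3.52 on the log2 scale (SE 0.34, adjusted p = 1.04e-06). The liver, kidney and heart did not differ as neighbours (adjusted p = 0.603 and 0.963), and the heart exceeded the small intestine by 3.01 (SE 0.34, adjusted p = 3.6e-06). Spic, which encodes a transcription factor of red pulp macrophages, was at 96.6, 119, 111 and 88.8 CPM in the spleen, at 3.96 to 8.53 CPM in the liver and at most 0.620 CPM elsewhere.

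Among the middle and late steps of synthesis, the liver led for Alad and Cpox and the spleen for Ppox. Alad was 108, 145, 123 and 139 CPM in the liver, above every other library, and exceeded the spleen by 1.35 on the log2 scale (SE 0.29, adjusted p = 0.00118). No neighbours below the liver differed for Alad. Cpox was 87.6, 135, 101 and 129 CPM in the liver and 27.3, 47.1, 86.8 and 91.8 CPM in the spleen, a difference of 0.99 (SE 0.38, adjusted p = 0.0379) with overlap between the organs. Ppox was 75.8, 87.8, 182 and 113 CPM in the spleen and 57.1, 30.7, 51.9 and 45.0 CPM in the liver, a difference of 1.24 (SE 0.43, adjusted p = 0.0248). In WT libraries alone these 2 differences missed the threshold, at 1.63 for Cpox (adjusted p = 0.0523) and 0.86 for Ppox (adjusted p = 0.386). Ppox was also uneven within the kidney, at 96.7 and 13.4 CPM in WT and 53.9 and 37.5 CPM in KO.

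Uros, Urod and Fech had no single leading organ. For Uros, the heart at 46.5 to 68.0 CPM and the spleen at 29.3 to 96.1 CPM did not differ (adjusted p = 1). Urod was 69.0 to 192 CPM in the spleen and 89.3 to 129 CPM in the heart (adjusted p = 0.827). Fech, the last step, was 163 to 223 CPM in the liver, 152 to 168 CPM in the heart, 81.1 to 209 CPM in the spleen and 89.5 to 109 CPM in the kidney, and no neighbours among these differed. Beyond neighbours, Fech in the liver exceeded the spleen by 0.56 (adjusted p = 0.0099) and the kidney by 0.95 (adjusted p = 3.83e-04), and Fech in the heart exceeded the kidney by 0.74 (adjusted p = 0.00249). Uros was likewise lower in the kidney, by 0.62 than in the spleen (adjusted p = 0.0112) and by 0.63 than in the heart (adjusted p = 0.0135), whereas no pair of these 4 organs passed the threshold for Urod. All 3 were lowest in the small intestine, which fell short of the kidney by 1.23 for Uros (SE 0.19, adjusted p = 9.62e-05), by 1.24 for Urod (SE 0.37, adjusted p = 0.0135) and by 1.62 for Fech (SE 0.17, adjusted p = 3.05e-06).

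Over the 10 pairs of organs, differences past an adjusted p of 0.05 were frequent among all genes, and the counts for the members are read against that. Between the small intestine and the liver 8 of 9 members differed, all higher in the liver, beside 49.4% of the 23159 genes tested. The small intestine and the spleen differed in 9 members, of which Alas1 alone was higher in the small intestine, beside 52.7%. With the kidney and the heart the small intestine differed in 5 members each, beside 49.1% and 56.4%, and none of these was higher in the small intestine. Liver and spleen differed in 7 members, 4 higher in the liver and 3 in the spleen, beside 56.4%. Liver and kidney differed in 4 members, beside 37.1%, and liver and heart in 4, beside 48.2%. The spleen differed from the kidney in 6 members, beside 54.7%, and from the heart in 5, beside 56.5%. Kidney and heart differed in 3, beside 41.1%. Whether the members differed more often than other genes was not tested.

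The 4 libraries of the small intestine also differed by replicate number in both genotypes. Slc40a1, which encodes the iron exporter ferroportin and is highest in the duodenum, was 133 and 58.6 CPM in replicates 1 and 2297 and 1424 CPM in replicates 2. Of the 9 members, 7 were higher in replicate 2 than in replicate 1 in both genotypes, beside 31.4% of the 17680 genes tested in this organ. Urod went from 17.7 to 43.5 CPM in WT and from 17.1 to 51.3 CPM in KO, and Cpox from 11.9 to 28.8 CPM and from 8.91 to 24.6 CPM. These 2 were the members with a log2 ratio over 1 in both genotypes, beside 7.53% of those genes, and Alas1 had ratios of 0.95 and 1.32. This is a description of 4 libraries without a test.

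**Figure D3:**
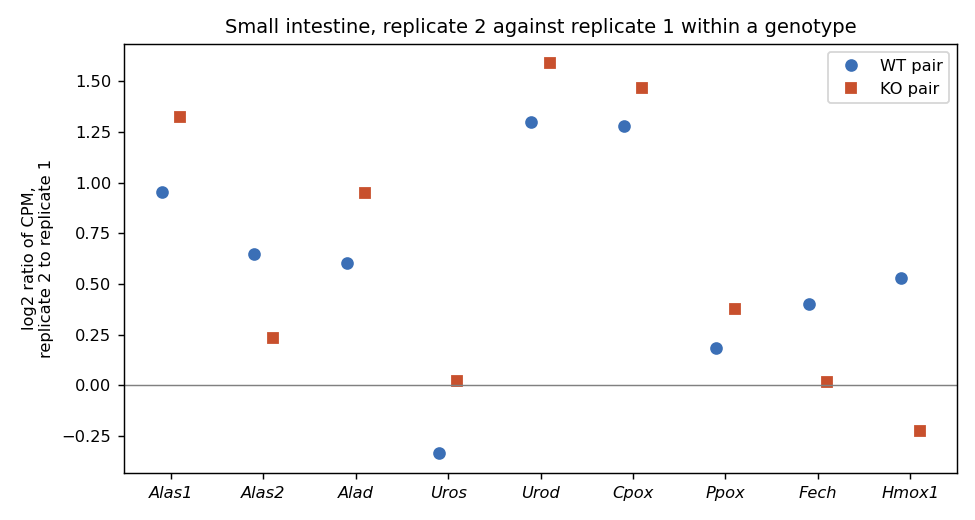
The y axis is the log2 ratio of CPM in replicate 2 to replicate 1 of the small intestine for each member on the x axis, with circles for the WT pair and squares for the KO pair. Urod and Cpox lie above 1 in both pairs, and Uros and Hmox1 lie on both sides of 0.

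In the KO spleen, Alas2 and Fech were the synthesis genes called higher. Alas2 rose 2.54-fold, from 141 and 153 CPM in WT to 329 and 394 CPM in KO, a log2 fold change of 1.34 (SE 0.18, adjusted p = 0.0839). Fech rose 2.46-fold, from 81.1 and 85.7 CPM to 188 and 209 CPM, a log2 fold change of 1.30 (SE 0.16, adjusted p = 0.0742). For both, the 2 KO libraries lay well above the 2 WT libraries. They were the 2 of 9 members called by the thresholds that the study set for DEGs (a fold change over 2 and an adjusted p under 0.1), beside 0.218% of the 18834 genes tested that were called higher. Both calls were lost when KO replicate 2 was left out, as were those of all genes, and in a fit of all 20 libraries. For the latter fit the share of all genes called was not counted.

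Uros, Urod, Cpox and Ppox did not pass these thresholds but had an unadjusted p under 0.05. Uros was 29.3 and 42.9 CPM in WT and 96.1 and 78.6 CPM in KO, with a log2 fold change of 1.31 (SE 0.23, adjusted p = 0.132). The values for Urod were 69.0 and 93.5 CPM in WT and 192 and 143 CPM in KO (log2 1.08, SE 0.22, adjusted p = 0.197). Cpox had 27.3 and 47.1 CPM in WT and 86.8 and 91.8 CPM in KO (log2 1.30, SE 0.28, adjusted p = 0.262), and Ppox 75.8 and 87.8 CPM against 182 and 113 CPM (log2 0.88, SE 0.23, adjusted p = 0.367). All 4 genes had both KO libraries above both WT libraries. In all, 6 of 9 members were higher at an unadjusted p under 0.05, beside 4.32% of all genes, and 6 had both KO above both WT libraries, beside 14.3%. Without WT replicate 2, the library with liver transcripts, 5 members were called, namely Alas2, Uros, Urod, Cpox and Fech, beside 1.32% of all genes. That fit has a single WT library, which is assumed to vary like the KO pair, and a lone library is treated likewise in every fit that leaves one out. DESeq2 on the 4 libraries called the same 5, beside 1.24% of 16643 genes.

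Alad, the second enzyme of the chain, was 29.0 and 50.04 CPM in WT and 81.7 and 49.6 CPM in KO, so that the genotypes overlapped (log2 0.76, SE 0.36, adjusted p = 1). Leaving out single libraries moved this value between 0.37 (without KO replicate 1) and 1.24 (without WT replicate 2). The median log2 fold change of the 9 members was 1.08, against 0.01 over all genes tested.

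Alas1 and Hmox1 did not share this direction. Alas1 was 15.98 and 21.1 CPM in WT and 15.3 and 10.3 CPM in KO, with a log2 fold change of -0.50 (SE 0.25, adjusted p = 1) and both KO libraries below both WT libraries. The value was -0.25 without WT replicate 2 and ranged from -0.81 to -0.25 over the libraries left out. Hmox1 was 193 and 327 CPM in WT and 289 and 134 CPM in KO, with a log2 fold change of -0.27 (SE 0.48, adjusted p = 1). The 2 KO libraries of Hmox1 lay on either side of WT replicate 1, and leaving out single libraries moved its log2 fold change between -0.91 and 0.19.

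**Figure D4:**
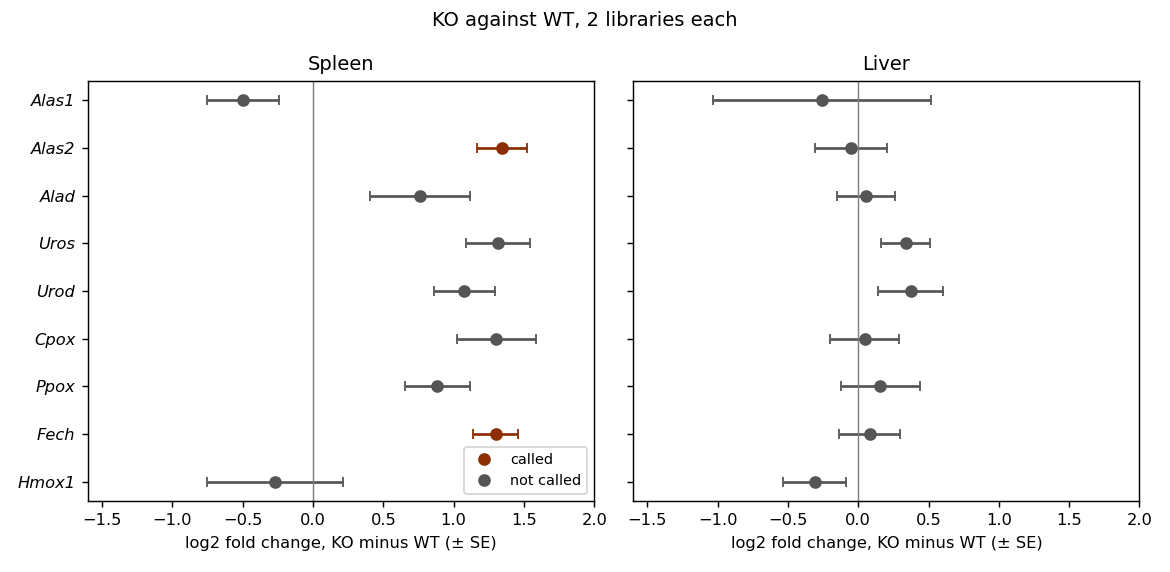
Points are log2 fold changes of KO against WT for the 9 genes in the spleen (left) and the liver (right), and bars are standard errors from 2 libraries per genotype. In the spleen, Alas2 and Fech (dark red) were called at 1.34 and 1.30, whereas in the liver no gene was called and the values lay between -0.31 and 0.37.

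Erythroid markers also had higher fitted levels in the KO spleen. Of 20 such markers 19 were in the table and tested, and all 19 had higher fitted levels in KO. Their log2 fold changes had a median of 1.44. Called were 7, among them Slc4a1, Epb42, Trim10, Hemgn and Rhd. Slc4a1, the anion exchanger of the red cell, rose from 220.1 and 239 CPM to 684 and 639 CPM. The most abundant marker was Tfrc, the transferrin receptor, at 239.7 and 341 CPM in WT and 706 CPM in both KO libraries (log2 1.32, SE 0.21, adjusted p = 0.116). The summed level of the list was 1145 and 1539.9 CPM in WT and 3814 and 3617 CPM in KO. These 7 calls stand beside 0.218% of all genes called higher. All of them were lost without KO replicate 2, as were those of all genes, and leaving out other libraries changed their number. DESeq2 called 18 of the 19 markers, beside 1.24% of all genes.

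The 4 globin genes had log2 fold changes from 0.72 to 1.24, all with an unadjusted p under 0.05 and none called. Reads of near-identical globin copies can be split between them, so their single values are uncertain. Mki67, a marker of dividing cells, rose from 316 and 369 CPM to 893 and 862 CPM (log2 1.40, SE 0.17, adjusted p = 0.0711), and all 6 genes of the proliferation list had an unadjusted p under 0.05. Medians were -0.25 for the B cell and 0.14 for the T cell markers on the log2 scale, with 0 called in either list, and 5 of 6 B cell markers had lower fitted levels, 1 of them (Pax5) at an unadjusted p under 0.05. All 6 neutrophil markers had lower fitted levels in KO, with a median of -0.76, 0 called and 1 (Mpo) at an unadjusted p under 0.05. Their sum was 175.2 and 391 CPM in WT and 107 and 241 CPM in KO, so that the genotypes overlapped. Whether the synthesis genes were higher per erythroid cell was not tested, since in bulk RNA more cells of a type and more RNA per cell cannot be told apart.

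Markers of red pulp macrophages did not move with them. Of 10 such markers, 0 were called and 0 had an unadjusted p under 0.05, and the median log2 fold change was 0.14. Their sum was 1293 and 1533 CPM in WT and 1623 and 1293 CPM in KO. Slc40a1, the most abundant over the 20 libraries, was 307 and 372 CPM in WT and 360.4 and 288 CPM in KO. In the spleen Vcam1 was higher, at 356 and 414 CPM in WT and 425 and 368 CPM in KO. Hmox1, at 193, 327, 289 and 134 CPM in the same order, likewise overlapped between the genotypes but with a wider spread.

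**Figure D5:**
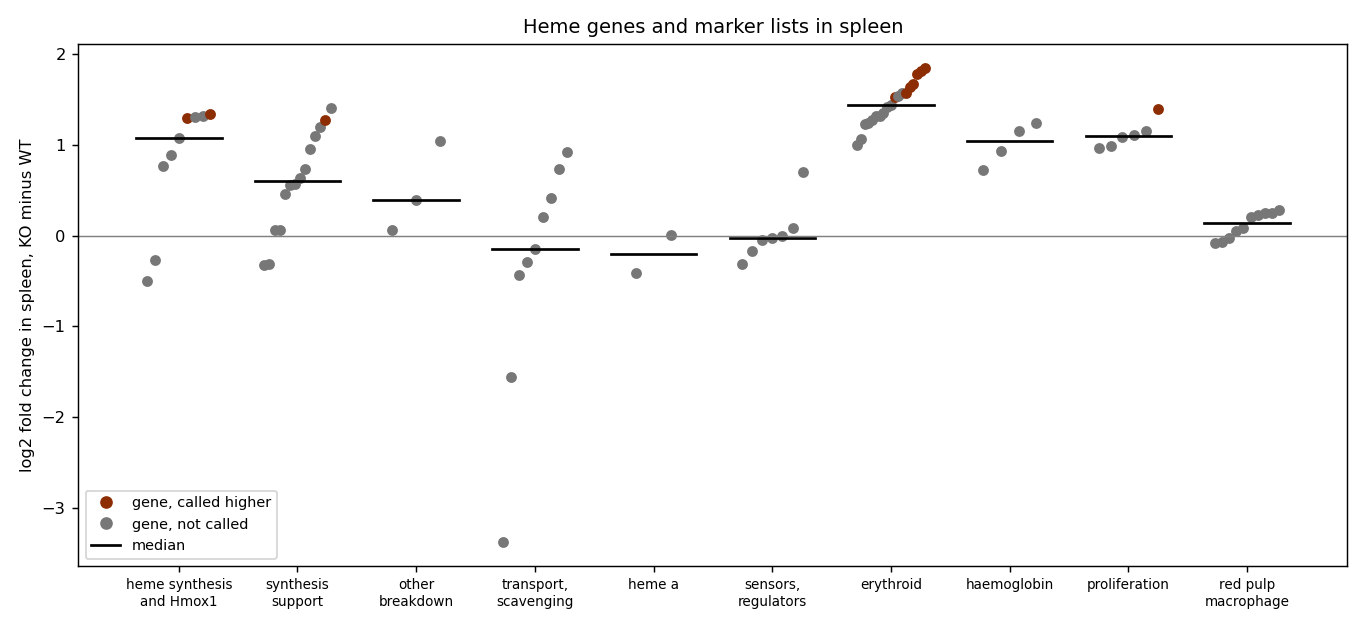
Points are genes and their log2 fold changes in the KO spleen, arranged by list along the x axis, with medians as black lines and called genes in dark red. The medians were 1.08 for the 9 heme genes, 1.44 for the erythroid markers and 0.14 for the red pulp macrophage markers. The lowest point, Hpx at -3.37, rests on 56.3 CPM in WT replicate 2 of the spleen against 0.731 CPM in WT replicate 1.

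The other genes of the pathway were followed in 5 lists with 38 genes in all. In the spleen 35 were tested, 1 was called higher and 0 lower, and 12 had an unadjusted p under 0.05, all higher in KO. Of all genes, 0.218% were called higher and 4.32% were higher at that level. The median log2 fold change was 0.09. The 14 genes that support synthesis had a median of 0.60, with 12 higher fitted levels and 7 at an unadjusted p under 0.05. Abcb10, a mitochondrial transporter needed for heme synthesis in red cells, rose from 38.6 and 46.7 CPM to 103 and 96.9 CPM (log2 1.27, SE 0.17, adjusted p = 0.0839). Slc25a37, or mitoferrin, which brings iron into the mitochondrion of erythroid cells, was 396 and 392 CPM in WT and 834 and 654 CPM in KO (log2 0.96, SE 0.16, adjusted p = 0.132). Its paralog in other tissues, Slc25a28, had a log2 fold change of -0.31 (SE 0.18, adjusted p = 1).

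Breakdown beyond heme oxygenase passes through biliverdin reductase. Blvrb, which is abundant in red cells, was 81.5 and 136 CPM in WT and 244 and 191 CPM in KO (log2 1.04, SE 0.28, adjusted p = 0.442). Blvra, the other reductase, had a log2 fold change of 0.40 and the constitutive oxygenase Hmox2 of 0.07 (adjusted p = 1 for both). Ugt1a1, which conjugates bilirubin, was too low in the spleen to be tested. Among 9 genes of heme transport and scavenging, 3 had an unadjusted p under 0.05, namely Hebp1, Abcg2 and Slc48a1, with log2 fold changes of 0.74, 0.92 and 0.41. The negative values of Hpx and Hp, products of hepatocytes that bind free heme and haemoglobin, coincide with the liver transcripts of WT replicate 2. Without that library the median of the transport list was 0.49 in place of -0.14. Of the heme sensors and regulators, Eif2ak1, the heme-regulated kinase that slows globin translation, had the smallest p (log2 0.70, SE 0.18, adjusted p = 0.376). The 2 enzymes of heme a synthesis had a median of -0.20, and Cox10 had the smaller p (log2 -0.41, SE 0.24, adjusted p = 1).

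In the liver no member passed either threshold. Of 9 members 0 were called, beside 0.0509% of 15729 genes called higher, and 0 had an unadjusted p under 0.05, beside 2.74% higher at that level. DESeq2 likewise found 0 and 0, beside 0.245% of all genes called higher and 0.158% lower. At an unadjusted p under 0.05 its shares of all genes were 2.4% higher and 1.66% lower. The log2 fold changes ran from -0.31 for Hmox1 (SE 0.22, adjusted p = 0.999) to 0.37 for Urod (SE 0.23, adjusted p = 0.999), with a median of 0.06. Leaving out single libraries moved Hmox1 between -0.49 (without KO replicate 1) and -0.15 (without KO replicate 2), and Urod between 0.096 (without WT replicate 1) and 0.71 (without WT replicate 2). The libraries limited this comparison most for Alas1. Its WT libraries, at 199 and 914 CPM, lay on either side of the KO libraries, at 594 and 334 CPM, which gave a log2 fold change of -0.26 (SE 0.78, adjusted p = 0.999). Leaving out single libraries moved that value between -0.99 and 1.27.

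For the other members of the liver the spread was smaller. Fech was 166 and 199 CPM in WT and 163 and 223 CPM in KO, and Alas2 15.3 and 23.5 CPM against 18.2 and 19.01 CPM. Hmox1 was 24.7 and 20.5 CPM in WT and 19.9 and 16.4 CPM in KO. The KO libraries of Hmox1 lay below and those of Uros, at 51.2 and 57.3 CPM, above the WT libraries, and the other 7 members overlapped. Among all liver genes tested, 16.9% had both KO libraries below and 16.2% above both WT libraries.

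Of the 38 other pathway genes, all tested in the liver, 0 were called, 1 was higher and 2 were lower at an unadjusted p under 0.05, beside 2.74% of all genes higher and 1.96% lower. The 2 lower genes were Nfe2l2, a regulator of the response to oxidants that also acts on Hmox1 (log2 -0.49), and Ppargc1a, a coactivator of Alas1 (log2 -0.83). Ppargc1a was 34.5 and 48.3 CPM in WT and 16.3 and 30.4 CPM in KO. In the lists of breakdown, of transport and of heme a synthesis the smallest p belonged to Blvrb (log2 0.37, SE 0.27), Hpx (log2 0.71, SE 0.40) and Cox15 (log2 0.25, SE 0.24), each with an adjusted p of 0.999. In the liver 6 erythroid markers were tested, whose log2 fold changes had a median of -0.15, and Slc4a1 was at most 0.631 CPM in any liver library. The 7 markers of Kupffer cells, the macrophages of the liver, had a median of 0.19 with 0 called.

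The difference between the KO effects in the spleen and the liver was tested as an interaction. It was called for 0 of 9 members by an adjusted p under 0.1, as for 0% of the 23159 genes. At an unadjusted p under 0.05, 3 members had a larger effect in the spleen, beside 1.17% of all genes. These were Fech, with a difference of 1.17 on the log2 scale (SE 0.33), Uros, with 0.94 (SE 0.37), and Alas2, with 1.35 (SE 0.60), each with an adjusted p of 1. For Alas1 and Hmox1 the differences were -0.27 (SE 0.90) and 0.02 (SE 0.61), with an adjusted p of 1 for both. Hence the data do not show, after adjustment over all genes, that any member responded differently in the 2 organs.

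In the other 3 tissues 0 of 9 members were called, as were 0% of all genes called higher in each. None had an unadjusted p under 0.05 either, beside 1.77% of all genes in the small intestine, 0.405% in the kidney and 0.186% in the heart that were higher at this level. Kidney Alas1 came nearest, at 72.4 and 37.0 CPM in WT and 175 and 91.0 CPM in KO (log2 1.27, SE 0.50, adjusted p = 1). WT replicate 2 of the kidney was also low in Nr1d1, a heme-binding repressor of the circadian clock, at 2.29 CPM against 44.2, 31.8 and 24.5 CPM in the other 3 kidney libraries, and its part in the Alas1 values was not tested. The kidney counts rested on the WT libraries. Without WT replicate 2, Urod and Hmox1 were called higher, beside 1.37% of all genes, and Ppox lower, beside 0.996%. Without WT replicate 1, Alas1 and Ppox were called higher, beside 14.3%, and 0 lower, beside 1.81%, so that the direction of Ppox depended on the library left out. Without KO replicate 1 no member was called, beside 0.0106% of all genes called lower, and without KO replicate 2 none, beside 0.00539% called higher. DESeq2 and the fit with replicate number as a block each gave 1 kidney member with a higher level at p under 0.05, beside 0.393% and 0.41% of all genes.

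Genes with the pattern most like that of 3 members were found by the Pearson correlation of log2 CPM over the 20 libraries, which largely reflects the 5 organs they share. For Alas2 the 5 highest were Hbb-bs (0.974), Cmtm3 (0.964), Hbb-bt (0.959), Tal1 (0.956) and Dennd2c (0.941), of which Hbb-bs and Hbb-bt encode beta globins and Tal1 an erythroid transcription factor. For Alas1 the 5 highest included Srpr (0.953), Tspan31 (0.952), Ctif (0.935) and Gpt2 (0.932). For Hmox1 they were Sirpa (0.954), S100a9 (0.945), Notch2 (0.928), Epor (0.928) and Wdr3 (0.928), and Sirpa encodes a receptor of phagocytes that reads CD47.

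Among the members themselves, over the same libraries, the correlation was 0.92 between Uros and Fech. It was also 0.92 between Alas2 and Hmox1, which were both highest in the spleen. It was 0.86 for Alad with Cpox, Uros with Urod and Alas2 with Uros. Alas1 correlated most with Alad, at 0.57, and was at -0.26 with Alas2 and -0.34 with Hmox1. These values describe 20 libraries from 5 organs and are not independent points.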

How the data were processed

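RNA-seq libraries of 5 tissues were assigned to groups from the labels, which name tissue, genotype and replicate. The authors trimmed reads with cutadapt, mapped them with HISAT2 2.1.0, and counted exons of the Ensembl annotation of GRCm38 with featureCounts 2.0.1. They deposited raw counts per gene, and the merged exon length of each gene (a value other than a measurement, in bases). The methods print GRCh38 where the results name mm10. They state reverse-stranded counting, whereas the stored command lacks this option, so overlapping genes may share reads. Even counts made up 54.9% to 59.8% of values between 10 and 50, as when mates are counted separately, so counts are not independent molecules.

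From these counts, edgeR 4.0.16 (R 4.3.3) was run with TMM scaling, filterByExpr and the robust quasi-likelihood test in each tissue (adjusted p under 0.1 and fold change over 2). Organ pairs (adjusted p under 0.05) and the interaction (adjusted p under 0.1) were tested in a fit of 20 libraries and 10 groups, with 10 residual degrees of freedom. Standard errors were obtained from each log2 fold change and its F statistic. The ratio of the synthases used 0.5 added counts. DESeq2 1.42.0 was an alternative. Both tools were tested on simulated counts.

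The members and lists were chosen with earlier results of these data known. Named were all members, pathway genes called or with the smallest p per list in the spleen and liver, the most abundant or called markers, and the 5 genes most like Alas1, Alas2 and Hmox1. Other genes given with values were chosen after their values were seen. They were Slc25a37, Slc25a28, Blvra, Hmox2, Ugt1a1, Hp, Hpx, Abcg2, Slc48a1, Ppargc1a, Spic, Vcam1, Mpo, Pax5, Nqo1, Gclc and Nr1d1. Protein sequences were not used here, and not every listed gene is reported.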

Additional observations from a re-analysis of the deposited data

How the results depend on the processing

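Replicates with the same number deviated together with r from 0.01 (spleen) to 0.57 (small intestine), over 2 pairs per tissue. The labels do not state a pairing, and the number is not taken as one. In the small intestine the test of KO against WT thus counts the difference shared by replicate number as spread, which limits what it can detect. With the replicate number as a block the spleen still had 2 members called, beside 0.223% of all genes called higher. The liver had 0, beside 0.102% higher and 0.0254% lower. The block turned liver Alas1 from -0.26 to 0.070 on the log2 scale. It gave 1 kidney member higher at an unadjusted p under 0.05 in place of 0, beside 0.41% of all genes. DESeq2 and no filter also gave 1 in the kidney, beside 0.393% and 0.4% of all genes. In the spleen, 5 members were called by DESeq2 and 5 without a filter, beside 1.24% and 0.867% of all genes called higher. A fit of all 20 libraries called 0, as did an adjusted p under 0.05. For neither was the share of all genes counted, so these counts cannot be read against other genes. No filter also gave 1 member lower at an unadjusted p under 0.05, beside 1.5% of all genes. Leaving out each library in turn changed the number of members called in the spleen and the number lower at an unadjusted p under 0.05. In the kidney it gave 0 to 3 called (3 without WT replicate 2), 0 to 4 higher and 0 to 1 lower at p under 0.05, where up to 20.9% of all genes were higher and 14% lower without WT replicate 1 (3 and 0 members) and 9.84% and 8.08% without WT replicate 2 (4 members and 1), in the liver 0 to 2 higher (2 without WT replicate 2, beside 7.85% of all genes), and for the interaction 1 to 3 members. Liver log2 fold changes then ranged from -0.99 to 1.27 for Alas1, -0.17 to 0.31 for Alad, -0.25 to 0.42 for Cpox, -0.13 to 0.26 for Fech, -0.35 to 0.32 for Alas2 and -0.20 to 0.64 for Ppox, and Hmox1 in the spleen from -0.91 to 0.19. The cause was not tested. For the interaction with a library left out, the share of all genes was not counted. Its range of members therefore cannot be read against other genes.

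With genotype and replicate number as a block, as if each number were a mouse, 57 differences of members between organs passed the threshold in place of 56. These counts compare fits of the same members, and whether members differed more often than other genes was not tested. Uros in the heart minus the spleen turned to -0.019 with DESeq2 and -0.017 with RLE size factors, and Urod in the spleen minus the heart to -0.40 in WT libraries and -0.012 without spleen WT replicate 2. Without spleen WT replicate 2, Ppox in the spleen minus the liver was 1.17 (adjusted p = 0.0585). Without division by length the log2 ratio of Alas1 to Alas2 was 6.01 (small intestine), 4.53 (liver), -3.92 (spleen), 2.35 (kidney) and 0.72 (heart). With the length of the main transcript, chosen after seeing the data as were the list counts without spleen WT replicate 2, the small intestine had 5.28 and the heart -0.019. RLE size factors moved organ medians by less than 0.1 on the log2 scale. Depth limits Alas2 most in the small intestine, where it was at most 0.936 CPM. The fits of erythroid markers without each library were likewise added after seeing the data. So were the shares of all genes, among them those with DESeq2 and without each kidney library.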

Other observations

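Slc25a37, chosen after its values were seen, separated the replicate numbers of the small intestine in the direction opposite to ferroportin. It was 419 CPM in WT replicate 1 and 732 CPM in KO replicate 1, against 54.6 and 44.3 CPM in the replicates 2 of WT and KO. In the kidney the WT replicates differed in the same gene, at 79.4 and 12.6 CPM, and in Blvra, which encodes biliverdin reductase A, at 77.0 and 202 CPM, while the KO replicates were at 107 and 98.6 CPM for Blvra. Ugt1a1 was at 0 in all 4 heart libraries and at 18.6 to 55.2 CPM in the liver.

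Other lists were counted in the KO libraries. Of 7 targets of Nfe2l2 other than Hmox1, 0 were called in the spleen, beside 0.218% of all genes called higher. An unadjusted p under 0.05 was found for 3, all higher, beside 4.32% of all genes higher at that level. They were Nqo1, Gclm and Gclc (log2 0.99, 0.83 and 0.51, adjusted p = 0.893, 0.341 and 0.634). In the liver 1 of 6 tested was higher at that level, Osgin1, beside 2.74% of all genes. There 0 were called, beside 0.0509% of all genes called higher. Of 5 heat shock genes, Hspb1, which encodes a small chaperone, was called in the liver, at 3.71 and 4.63 CPM in WT and 19.3 and 33.7 CPM in KO (log2 2.67, SE 0.31, adjusted p = 0.0431), and 0 were called in the spleen. Of 10 clock genes 0 were called in either organ. Fitted levels in the KO spleen were lower for 9 of them (median -0.24 on the log2 scale), where 51.3% of all genes were higher. The 4 genes of the heart atrium had lower fitted levels in the KO heart, where 48.2% of all genes were higher, with a median of -2.09 and 0 called. Their sum was 840 and 1495 CPM in WT and 81.1 and 531 CPM in KO, so that KO replicate 1 stood lowest.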
